A study of Mus musculus with 8 samples.

Results

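Nucleic acid sensors are the proteins with which a cell recognises viral or misplaced RNA and DNA. The 10 genes described here were the rows named Ddx58, Ifih1, Dhx58, Eif2ak2, Tlr3, Mavs, Tmem173, Mb21d1, Aim2 and Zbp1 in the authors' 3 deposited tables. They were 10 of the 18933 genes in each table, and every one of them had a row. Messenger RNA had been sequenced from 8 samples of mouse adipocytes in culture, in 4 groups of 2 samples. Cells of the stromal vascular fraction, which holds the precursors of fat cells, were transfected when almost confluent and taken back to full medium after 8 h. All groups were then induced with rosiglitazone, 3-isobutyl-methylxanthine, dexamethasone and insulin and were collected at day 4. The groups were cells given a locked nucleic acid inhibitor of miR-182, of miR-203 or of miR-708 at 100 nM, and control cells. Such an inhibitor is a short modified oligonucleotide that binds a microRNA and blocks it. What the control cells had been transfected with was not stated in the labels, nor were the strain, sex and age of the mice or the depot of fat, although brown adipocytes are named in the series title. Whether both samples of a group had an animal or a culture of their own was likewise not stated, and p-values then measure only the spread between these samples, which may be technical.

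RIG-I-like receptors bind viral RNA in the cytosol and signal through the adaptor MAVS on mitochondria. DNA in the cytosol is bound by cGAS, whose cyclic dinucleotide product activates STING, and both routes lead to the kinases TBK1 and IKKε, to the transcription factors IRF3 and IRF7, and to type I interferon. Interferon in turn induces many of the sensors through transcription factors that bind the interferon-stimulated response element (ISRE) in promoters. These pathways operate in fat cells and their precursors as well as in immune cells.

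The deposited values were FPKM, a read abundance divided by transcript length and library size, with 1 value per group pooled by the authors, so no spread between the 2 samples could be given. The FPKM files hold no read counts and the depth is unknown. Control values were identical in the 3 tables, so the 3 comparisons share their control samples and are not independent. A gene is called higher or lower below where the q-value in the authors' deposited table was under 0.05, and other genes are given by their values alone. The smallest q-value that occurs in the authors' deposited table is 0.00176. All 10 adipocyte markers that were listed (Adipoq, Fabp4, Plin1, Pparg, Cebpa, Lpl, Cidec, Lipe, Ucp1 and Cidea) were at 1 FPKM or more in every group.

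The 3 microRNAs have unlike seeds, the bases with which a microRNA pairs with its targets. The labels did not state which arm of each hairpin was inhibited. The arms shown are the ones that RefSeq (GRCm38.p6) names miR-182-5p, miR-203-3p and miR-708-5p, with the seed, bases 2 to 8, in capitals, because these bases define the sites that were looked for in the sensors.
miR-182-5p: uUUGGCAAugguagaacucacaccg
miR-203-3p: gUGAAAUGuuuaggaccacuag
miR-708-5p: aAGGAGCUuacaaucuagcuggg

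In the longest annotated 3′ UTR of each gene (GENCODE M21), complements of these seeds were found in 3 of the 10 sensor genes. Ifih1 held 1 site for miR-182, at bases 28 to 34 of its 2111-base 3′ UTR, and 1 site for miR-708, at bases 384 to 390. Mb21d1 held 1 site for miR-203, at bases 600 to 606 of 2399. Each is shown with 10 bases on either side and the site in capitals.
Ifih1, miR-182 site: ttttaaaataTTGCCAActcaacattg
Ifih1, miR-708 site: agctacttcaAGCTCCTgtcactgtga
Mb21d1, miR-203 site: taagggccagCATTTCAttgaggctgg

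Tmem173 held 1 site for miR-182. The other 7 sensor genes had none of these sites in that 3′ UTR. Sites of this kind are common. Among all 14596 genes of the tables with an annotated 3′ UTR, 12.0% held a miR-182 site, 16.7% a miR-203 site and 15.3% a miR-708 site. Among genes whose 3′ UTR was of similar length, the shorter being at least 0.8 times as long as the longer, a miR-182 site was present in 15.9% for Ifih1 and in 6.34% for Tmem173. For the miR-708 site of Ifih1 that share was 21.3%, and for the miR-203 site of Mb21d1 it was 25.9%. A match is a run of letters, and binding at these sites was not measured.

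The sensors were higher mainly with the miR-182 inhibitor. Of 10 sensor genes tested with the miR-182 inhibitor, 6 were called higher (Ddx58, Ifih1, Eif2ak2, Mb21d1, Zbp1 and Tmem173) and 0 lower, where 8.4% of all 14391 tested genes were called higher and 6.23% lower. With the miR-203 inhibitor 1 of 9 tested sensors was called higher, Ddx58, and 0 lower, against 4.72% higher and 2.51% lower among 14371 genes. With the miR-708 inhibitor 1 of 9 was called higher, Tmem173, and 0 lower, against 4.51% higher and 3.05% lower among 14316 genes. A share of 1 in 9 is too small a count to set against those backgrounds. At q under 0.01 in the authors' deposited table, the sensors called numbered 4, 0 and 1 with the miR-182, miR-203 and miR-708 inhibitors, and Ddx58 was then no longer a call with the miR-203 inhibitor. At an unadjusted p under 0.05 in the authors' deposited table from Cuffdiff, 7 sensors passed with the miR-182 inhibitor, 4 with the miR-203 inhibitor and 4 with the miR-708 inhibitor, and 0 of these were lower in any comparison. The same threshold was passed by 27.5%, 17.8% and 18.6% of all genes tested in those 3 comparisons.

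The median log2 ratio of the 10 sensors, computed on FPKM + 1, was 0.48 with the miR-182 inhibitor, 0.23 with the miR-203 inhibitor and 0.24 with the miR-708 inhibitor. Over all tested genes it was −0.0094, −0.0077 and −0.014 in the same comparisons. The sensor medians depend on the pseudocount, since 5 of the 10 genes were under 1 FPKM in control cells: with 0.1 in place of 1 they were 0.86, 0.37 and 0.42. Among sensors with at least 1 FPKM in either group the median with the miR-182 inhibitor was 0.81. Values stood above the control value for 9 of the 10 sensors with the miR-182 inhibitor, for 8 with the miR-203 inhibitor and for 8 with the miR-708 inhibitor, where 48.7%, 48.7% and 47.5% of all tested genes did. In 6 sensors (Ifih1, Eif2ak2, Tlr3, Tmem173, Mb21d1 and Zbp1) the order was miR-182 inhibitor, miR-708 inhibitor, miR-203 inhibitor and control, highest first. Neighbours in that order could not be separated from sample spread, since no value of a single sample was used here. In bulk samples, fewer cells of a type and less RNA per cell cannot be told apart.

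**Figure D1:**
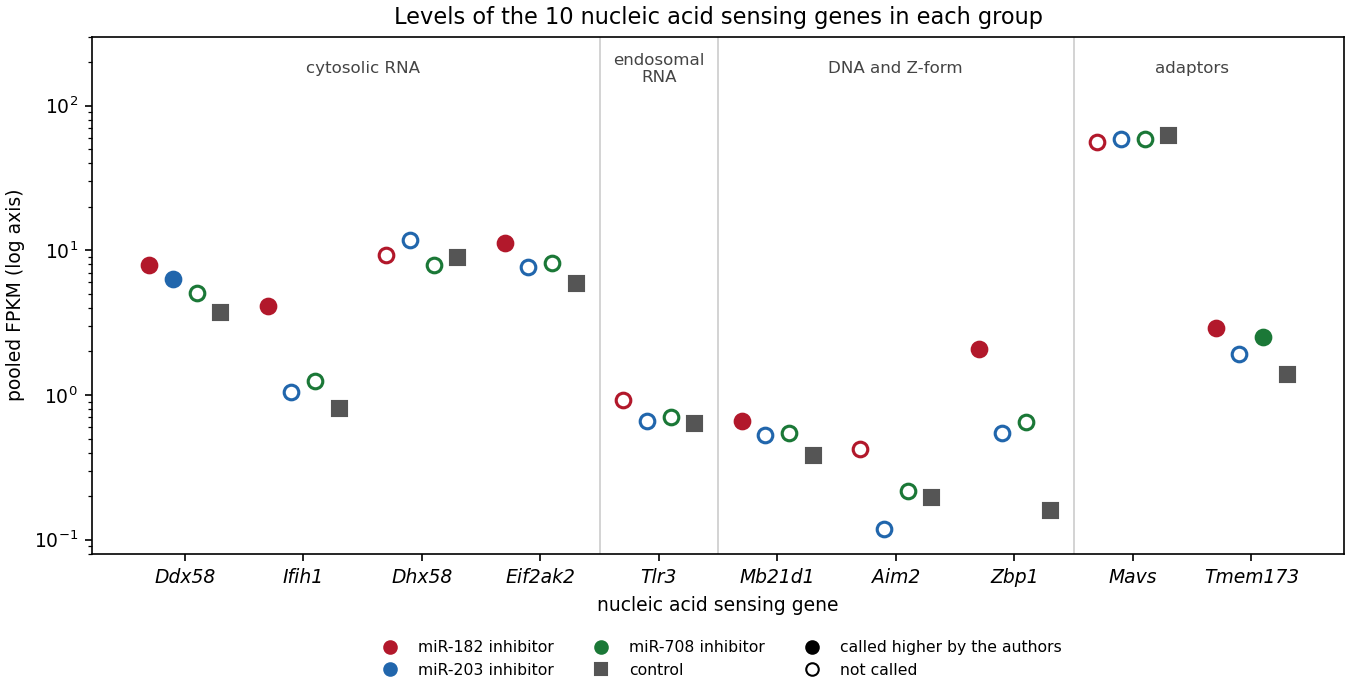
Pooled FPKM (log axis) of the 10 sensor genes, grouped by role, with 1 symbol per group: the 3 inhibitors and the control. Filled symbols mark inhibitor groups that the authors' deposited table calls different from control (q under 0.05), and the separation is widest for Zbp1 (2.09 FPKM with the miR-182 inhibitor, 0.161 FPKM in control cells) and Ifih1 (4.15 and 0.808 FPKM).

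Of the 4 cytosolic RNA sensors, Ddx58, Ifih1 and Eif2ak2 were called higher with the miR-182 inhibitor and Dhx58 was not called. Ddx58 encodes RIG-I, a helicase that recognises RNA with a triphosphate at its 5′ end. Ddx58 (ENSMUSG00000040296) lies on the minus strand of chr4:40203773-40239828 (mm10). It had 7.92 FPKM with the miR-182 inhibitor, 6.32 with the miR-203 inhibitor and 5.10 with the miR-708 inhibitor, against 3.77 FPKM in control cells. The 3 inhibitor groups thus all stood above control, and only Ddx58 was called in both the miR-182 and the miR-203 comparison. Its level was 2.10-fold the control level with the miR-182 inhibitor and 1.68-fold with the miR-203 inhibitor, with q = 0.00176 and q = 0.0181 in the authors' deposited table. With the miR-708 inhibitor the ratio was 1.35, with q = 0.358 in the authors' deposited table.

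Ifih1 encodes MDA5, the helicase that recognises long double-stranded RNA. Ifih1 (ENSMUSG00000026896) lies on the minus strand of chr2:62595798-62646255. It had 4.15 FPKM with the miR-182 inhibitor, 1.04 with the miR-203 inhibitor and 1.25 with the miR-708 inhibitor, against 0.808 FPKM in control cells. The miR-182 group stood apart from the other 3 groups, which lay close together. The level with the miR-182 inhibitor was 5.14-fold the control level, with q = 0.00176 in the authors' deposited table. The ratios were 1.29 with the miR-203 inhibitor and 1.55 with the miR-708 inhibitor, with q = 0.778 and q = 0.535 in the authors' deposited table. Of its 2 seed sites, one belongs to the comparison that was called and the other, for miR-708, to one that was not.

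Dhx58 encodes LGP2, a relative of RIG-I and MDA5 without signalling domains that regulates both. Dhx58 (ENSMUSG00000017830) lies on the minus strand of chr11:100694884-100704271. It had 9.34 FPKM with the miR-182 inhibitor, 11.8 with the miR-203 inhibitor and 7.93 with the miR-708 inhibitor, against 8.98 FPKM in control cells. These ratios of 1.04, 1.32 and 0.883 lay on both sides of 1, and q in the authors' deposited table was 0.997, 0.960 and 0.993. Its value is uncertain, because the authors' locus for it runs from 100574904 to 100704271 and holds 6 genes, among them Dnajc7 at 254 FPKM and Nkiras2 at 89.2 FPKM in control cells. The use of strand in counting is not given in the sources used here, and an antisense gene, Dhx58os, overlaps it.

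Eif2ak2 encodes PKR, the kinase that stops translation by phosphorylating eIF2α when it binds double-stranded RNA. Eif2ak2 (ENSMUSG00000024079) lies on the minus strand of chr17:78852564-78882573. It had 11.2 FPKM with the miR-182 inhibitor, 7.65 with the miR-203 inhibitor and 8.21 with the miR-708 inhibitor, against 5.93 FPKM in control cells. All 3 inhibitor groups were above control and the miR-182 group was the highest. The ratio of 1.88 with the miR-182 inhibitor had q = 0.00176 in the authors' deposited table. The miR-203 and miR-708 inhibitors gave ratios of 1.29 and 1.39, with q = 0.221 and q = 0.0801 in the authors' deposited table. The authors' locus for Eif2ak2, 78852564 to 78906992, holds 3 genes, of which Sult6b1 and AC154274.1 were under 1 FPKM in every group, and 2 further genes, n-R5s29 and Gm26637, overlap Eif2ak2 on the opposite strand.

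**Figure D2:**
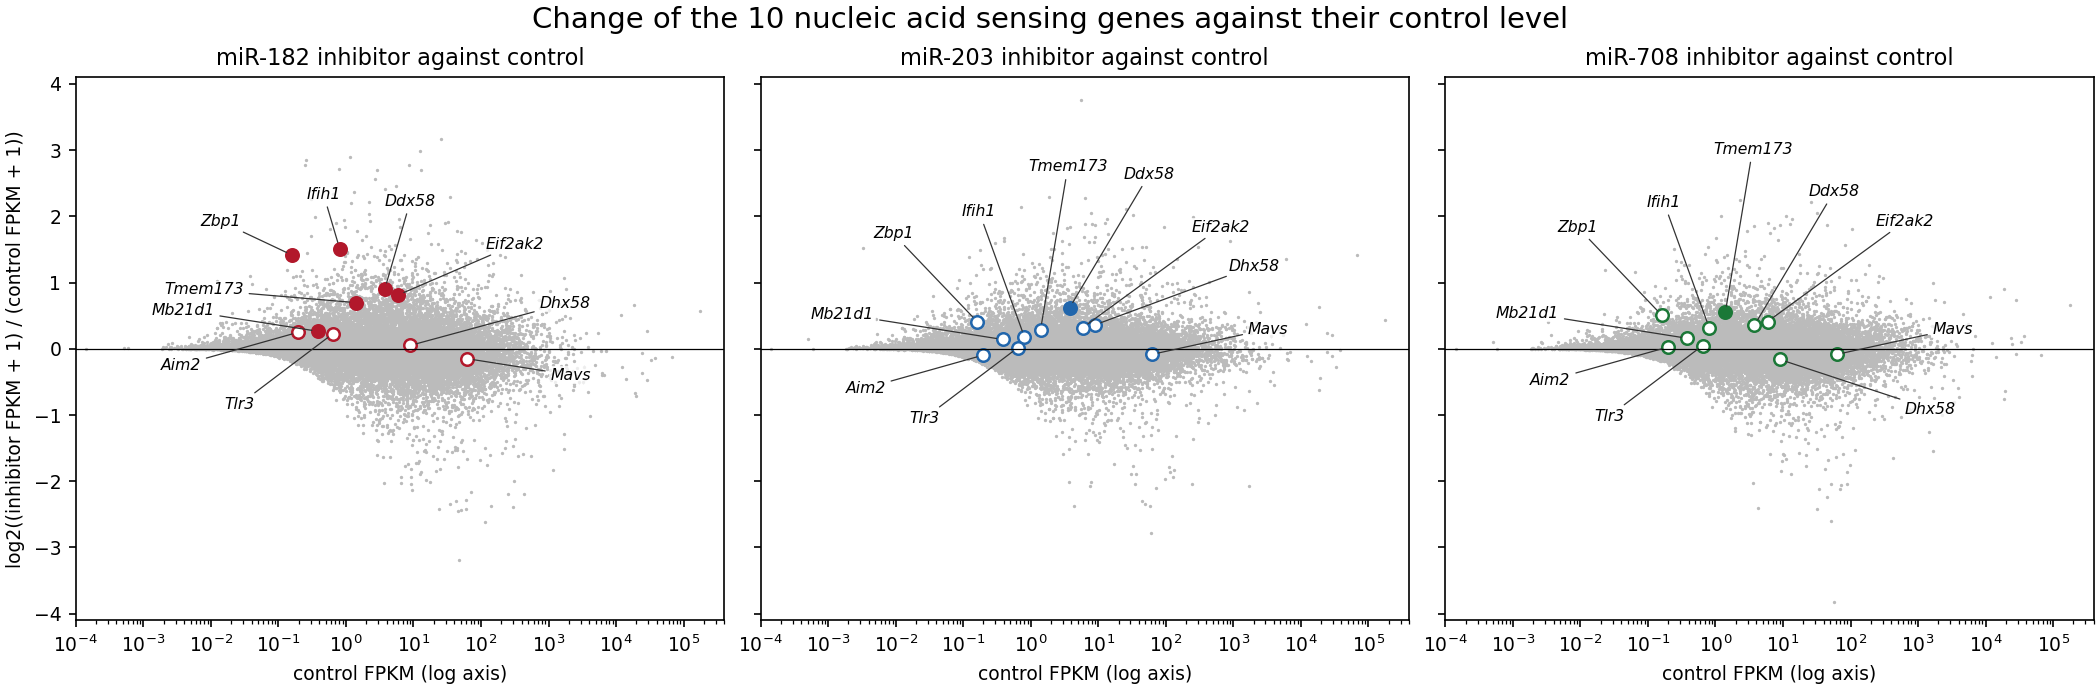
Each panel plots the log2 ratio of inhibitor to control, computed on FPKM + 1, against the control FPKM (log axis) for all 18933 genes in grey and the 10 sensors in colour, filled where called higher and open where not called or not tested. In the miR-182 panel Ifih1 (1.51) and Zbp1 (1.41) have the largest log2 ratios of the sensors, while Mavs (−0.15) is the sensor gene with the highest control level and lies just under 0.

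The promoters of the sensors were examined for the letters that interferon-activated factors bind. RefSeq promoter windows (GRCm38.p6, 250 bases before to 50 bases after the start) matched 7 of the 10 genes: Ddx58, Ifih1, Eif2ak2, Mb21d1, Tlr3, Mavs and Aim2. The ISRE letters, GAAA followed by any 2 bases and a second GAAA, on either strand, were present in 3 of these 7, Ddx58, Ifih1 and Eif2ak2, where 3.44% of 32851 promoter windows hold them. All 3 genes with the letters were called higher with the miR-182 inhibitor, as was Mb21d1, which lacks them. Zbp1 and Tmem173, also called higher there, had no window to examine. In Ddx58 the match begins at base 3 after the start and reads on the opposite strand, in Eif2ak2 it begins at base 19, and in Ifih1 at base 33. A shorter core, AA, any 2 bases and GAAA, which every ISRE match contains, was present in 4 of the 7, Tlr3 being the fourth, where 23.9% of windows hold it. The core was chosen after the promoters were seen, and 3 of the 4 follow from the ISRE matches, so that share is no measure of enrichment. The letters TTCNNNGAA (GAS, another interferon-responsive motif) were present in Eif2ak2 alone, where 8.30% of windows hold them. A match is a description of the sequence and not a measured binding site.

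The windows of the 3 genes with ISRE letters, and that of Mavs, which has none of these motifs, are printed 5′ to 3′ on each gene's own strand. Capitals mark ISRE and core matches, and each ISRE match holds a core match inside it. The first capitals in Ddx58, before the start, are a core match alone. In Ifih1 the capitals open with another core match, at base 29, which overlaps the ISRE match that begins at base 33. The windows are chr4:40239776-40240075 (minus strand) for Ddx58, chr2:62646206-62646505 (minus strand) for Ifih1, chr17:78882523-78882822 (minus strand) for Eif2ak2 and chr2:131233813-131234112 (plus strand) for Mavs.
Ddx58: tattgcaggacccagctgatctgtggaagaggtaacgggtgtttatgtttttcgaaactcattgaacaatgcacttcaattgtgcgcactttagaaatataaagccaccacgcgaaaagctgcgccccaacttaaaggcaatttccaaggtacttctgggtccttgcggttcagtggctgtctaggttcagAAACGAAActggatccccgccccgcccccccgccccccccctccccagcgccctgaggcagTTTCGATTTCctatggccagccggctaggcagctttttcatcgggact
Ifih1: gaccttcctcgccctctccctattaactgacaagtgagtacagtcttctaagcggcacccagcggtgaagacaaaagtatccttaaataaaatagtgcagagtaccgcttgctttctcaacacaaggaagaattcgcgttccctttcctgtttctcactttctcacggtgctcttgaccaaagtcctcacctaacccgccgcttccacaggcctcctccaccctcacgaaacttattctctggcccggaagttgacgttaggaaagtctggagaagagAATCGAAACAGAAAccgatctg
Eif2ak2: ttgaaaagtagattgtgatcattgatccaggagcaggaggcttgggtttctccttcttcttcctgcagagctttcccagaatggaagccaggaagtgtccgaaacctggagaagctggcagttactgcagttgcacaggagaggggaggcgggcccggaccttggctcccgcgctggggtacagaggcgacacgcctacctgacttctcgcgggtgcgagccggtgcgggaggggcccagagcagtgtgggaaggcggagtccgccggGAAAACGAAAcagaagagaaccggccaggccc
Mavs: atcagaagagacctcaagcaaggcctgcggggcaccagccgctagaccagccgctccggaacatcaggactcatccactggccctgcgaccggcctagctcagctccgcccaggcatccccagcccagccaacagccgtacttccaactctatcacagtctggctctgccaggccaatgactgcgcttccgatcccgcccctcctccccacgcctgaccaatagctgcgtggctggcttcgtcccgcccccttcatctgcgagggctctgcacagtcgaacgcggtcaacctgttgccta

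**Figure D3:**
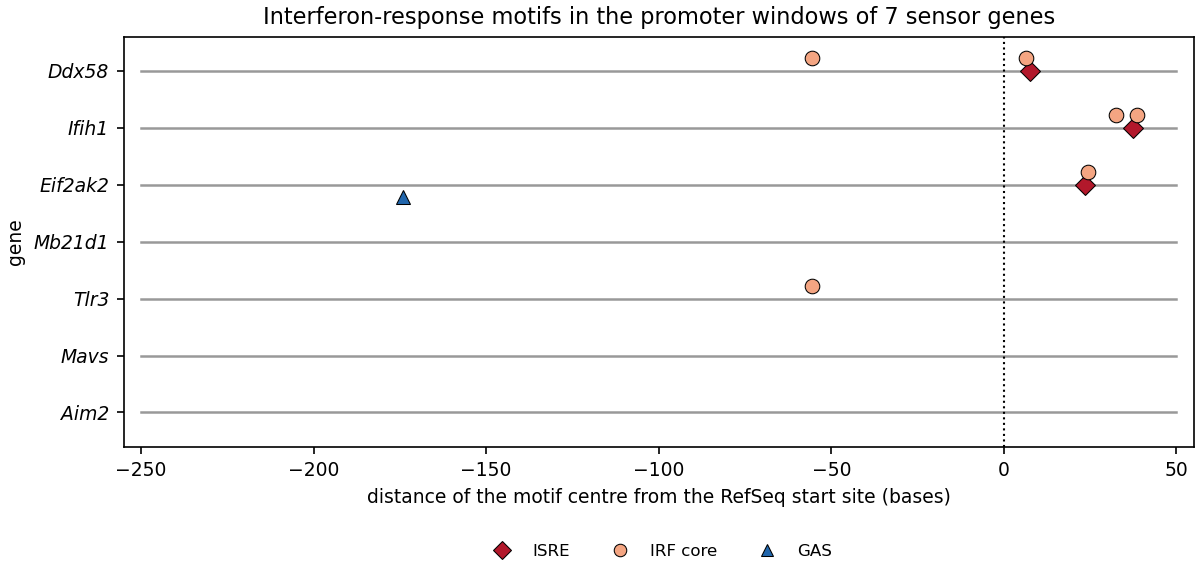
Positions of the ISRE, core and GAS matches along the promoter windows of the 7 sensor genes with a RefSeq window, as the distance in bases of each motif's centre from the start site. The ISRE matches of Ddx58, Ifih1 and Eif2ak2 all lie within the 50 bases after the start, and Mb21d1, Mavs and Aim2 have no match to any of the 3 motifs.

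Tlr3, the endosomal receptor for double-stranded RNA, differed less. Tlr3 (ENSMUSG00000031639) lies on the minus strand of chr8:45395665-45411080, with an antisense gene, Gm45542, over it. It had 0.929 FPKM with the miR-182 inhibitor, 0.664 with the miR-203 inhibitor and 0.702 with the miR-708 inhibitor, against 0.645 FPKM in control cells. All 4 values were under 1 FPKM. The ratio of 1.44 with the miR-182 inhibitor had an unadjusted p of 0.00555 and q = 0.0781 in the authors' deposited table, which is not a call. The other ratios, 1.03 with the miR-203 inhibitor and 1.09 with the miR-708 inhibitor, had q = 0.993 and q = 0.929 in the authors' deposited table.

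The adaptors of the RNA and DNA routes did not move alike. Mavs (ENSMUSG00000037523, plus strand of chr2:131234063-131248025), the adaptor of RIG-I and MDA5, was the most abundant of the 10 genes and stood at the 90.3 percentile of control FPKM over all genes. It had 56.3 FPKM with the miR-182 inhibitor, 58.9 with the miR-203 inhibitor and 58.9 with the miR-708 inhibitor, against 62.6 FPKM in control cells. Mavs was the only sensor gene with values under control in all 3 comparisons, and none was a call, with q of 0.712, 0.915 and 0.917 in the authors' deposited table.

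Tmem173 (ENSMUSG00000024349, minus strand of chr18:35733679-35740554) encodes STING, the membrane adaptor that cGAS activates. It had 2.89 FPKM with the miR-182 inhibitor, 1.93 with the miR-203 inhibitor and 2.52 with the miR-708 inhibitor, against 1.40 FPKM in control cells. All 3 inhibitor groups were above control, with the miR-203 group nearest to it. Ratios of 2.06 with the miR-182 inhibitor and 1.80 with the miR-708 inhibitor each came with q = 0.00176 in the authors' deposited table. With the miR-203 inhibitor the ratio was 1.38, with q = 0.110 in the authors' deposited table. Tmem173 was thus the only sensor called with the miR-708 inhibitor.

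Sensors of DNA and of Z-form nucleic acids were low in control cells. Mb21d1 (ENSMUSG00000032344, minus strand of chr9:78430526-78443237), listed as Cgas in the annotation, encodes the enzyme cGAS. It had 0.664 FPKM with the miR-182 inhibitor, 0.528 with the miR-203 inhibitor and 0.546 with the miR-708 inhibitor, against 0.386 FPKM in control cells. The ratio of 1.72 with the miR-182 inhibitor passed narrowly, with q = 0.0455 in the authors' deposited table. Ratios of 1.37 with the miR-203 inhibitor and 1.42 with the miR-708 inhibitor had q = 0.424 and q = 0.308 in the authors' deposited table. The pseudogene Gm8093 overlaps it on the opposite strand.

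Zbp1 (ENSMUSG00000027514, minus strand of chr2:173206612-173218923) encodes the sensor of Z-form RNA and DNA that can start necroptosis through RIPK3. It had 2.09 FPKM with the miR-182 inhibitor, 0.544 with the miR-203 inhibitor and 0.648 with the miR-708 inhibitor, against 0.161 FPKM in control cells. It was the lowest of the 10 genes in control cells and had the largest ratio of them in every comparison. Its level with the miR-182 inhibitor was 13.0-fold the control level, with q = 0.0208 in the authors' deposited table. Ratios of 3.37 with the miR-203 inhibitor and 4.02 with the miR-708 inhibitor were not called, with q = 0.327 and q = 0.237 in the authors' deposited table, although both had an unadjusted p under 0.05 there (0.0479 and 0.0286). A ratio to so low a control value is imprecise, and no interval could be given.

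Aim2 (ENSMUSG00000037860, plus strand of chr1:173350879-173466040) encodes the DNA sensor that assembles an inflammasome with ASC, the product of Pycard. It had 0.423 FPKM with the miR-182 inhibitor, 0.119 with the miR-203 inhibitor and 0.217 with the miR-708 inhibitor, against 0.197 FPKM in control cells. Every value was under 1 FPKM, and the authors' deposited table gave q = 0.587 with the miR-182 inhibitor and no test with the other inhibitors. Aim2 shares its locus with Cadm3 on the opposite strand, which had 1.62, 1.24 and 1.42 FPKM with the miR-182, miR-203 and miR-708 inhibitors and 1.49 FPKM in control cells.

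No deposited table sets one inhibitor against another, so differences between inhibitors are given as values with no test. The pooled FPKM was above that of the miR-203 inhibitor in miR-182 inhibitor cells for 8 of the 10 sensors, and above that of the miR-708 inhibitor for 9. The median log2 ratio of the 10 sensors was 0.32 for miR-182 over miR-203 inhibitor and 0.22 for miR-182 over miR-708 inhibitor, against −0.0023 and 0.0056 over all genes. For miR-203 over miR-708 inhibitor it was −0.061, against 0.0059 over all genes, and the miR-203 value was the higher one in 3 of 10 sensors. Ifih1, Zbp1 and Aim2 differed most between the miR-182 and miR-203 inhibitors, with ratios of 3.98, 3.85 and 3.54. Over the miR-708 inhibitor the miR-182 ratios were 3.31 for Ifih1, 3.23 for Zbp1 and 1.94 for Aim2. Between the miR-203 and miR-708 inhibitors, Aim2 and Dhx58 lay furthest apart and in opposite directions, Aim2 at 0.548 and Dhx58 at 1.49 for miR-203 over miR-708.

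The sensors signal through many other genes, which were taken from 9 lists by role. For comparison, 8.4% of all tested genes were called higher and 6.23% lower with the miR-182 inhibitor. The shares were 4.72% and 2.51% with the miR-203 inhibitor, and 4.51% and 3.05% with the miR-708 inhibitor. Among cofactors and adaptors of RNA sensing, 7 of 28 tested genes were called higher with the miR-182 inhibitor (Trim25, Ddx21, Irf7, Ifit1, Ikbke, Dhx9 and Ifit2) and 2 lower (Prkra and Zc3hav1). With the miR-203 inhibitor 1 of 25 was higher, Trim25, and with the miR-708 inhibitor 3 of 25 were higher, Trim25, Ddx21 and Dhx9. None was called lower with these 2 inhibitors in the authors' Cuffdiff tables, where 2 and 1 were lower at an unadjusted p under 0.05. The 2 of 28 lower with the miR-182 inhibitor and the 1 of 25 higher with the miR-203 inhibitor lie near the shares over all tested genes. Irf7, the interferon-inducible transcription factor of this route, had 20.9 FPKM with the miR-182 inhibitor, 6.23 with the miR-203 inhibitor and 9.33 with the miR-708 inhibitor, against 2.70 FPKM in control cells. Only the miR-182 value of Irf7 was a call. Trim25, the ubiquitin ligase that activates RIG-I, was called in all 3 comparisons and had 16.2, 10.7 and 10.1 FPKM with the miR-182, miR-203 and miR-708 inhibitors, against 7.42 FPKM in control cells. Ikbke, which encodes the kinase IKKε, had 5.57 FPKM with the miR-182 inhibitor, where it was called, and 2.80 FPKM in control cells.

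The DNA sensing list was the one with most calls outside the miR-182 comparison. Among all tested genes 8.4%, 4.72% and 4.51% were called higher with the miR-182, miR-203 and miR-708 inhibitors, and 6.23%, 2.51% and 3.05% lower. With the miR-182 inhibitor 8 of the 23 tested genes on this list were higher (Gsdmd, Mnda, Pycard, Ifi203, Trim32, Ifi205, Ifi204 and Mndal) and 2 lower (Xrcc6 and Xrcc5, the Ku subunits that bind broken DNA ends). With the miR-203 inhibitor 5 were higher (Mnda, Ifi203, Ifi205, Ifi204 and Mndal) and 1 lower, Xrcc5. With the miR-708 inhibitor the same 5 and Gsdmd were higher. Those 5 belong to the same family as Aim2, and sit in a cluster of near-identical copies between which reads can be divided wrongly, so their single values are uncertain. Ifi205 had 7.51 FPKM with the miR-182 inhibitor, 4.73 with the miR-203 inhibitor and 5.62 with the miR-708 inhibitor, against 1.47 FPKM in control cells. These relatives of Aim2 were thus called in all 3 comparisons. Aim2 itself was not called with the miR-182 inhibitor and was not tested with the other inhibitors. Pyhin1, also on this list, was tested in no comparison, and both Aim2 and Pyhin1 were under 1 FPKM in every group.

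Oligoadenylate synthetases, which sense double-stranded RNA and activate RNase L, were called higher for 3 of 8 tested genes with the miR-182 inhibitor (Oasl2, Oas1b and Oasl1) and for Oasl2 alone with the miR-203 inhibitor (of 6 tested) and the miR-708 inhibitor (of 5 tested). The shares of all tested genes called higher were 8.4%, 4.72% and 4.51%, and 1 gene of 6 or 5 is too small a count to set against them. Oasl2 had 7.53 FPKM with the miR-182 inhibitor, 1.88 with the miR-203 inhibitor and 2.53 with the miR-708 inhibitor, against 0.247 FPKM in control cells. Its control value, like those of Zbp1 and Aim2, was well under 1 FPKM. Oas1 genes are also near-identical copies, so the value of Oas1b is uncertain.

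Among brakes on sensing, 5 of 19 tested genes were higher with the miR-182 inhibitor (Usp18, Trim30a, Rnf125, Isg15 and Nlrc5), 2 of 18 with the miR-203 inhibitor (Usp18 and Isg15) and 3 of 19 with the miR-708 inhibitor (Usp18, Trim30a and Isg15). Of all tested genes 8.4%, 4.72% and 4.51% were called higher in the same comparisons. Isg15, a ubiquitin-like modifier, had 14.9 FPKM with the miR-182 inhibitor, 3.58 with the miR-203 inhibitor and 3.46 with the miR-708 inhibitor, against 1.13 FPKM in control cells. Usp18, the protease that removes it and restrains the interferon receptor, had 4.36, 1.34 and 1.70 FPKM with the miR-182, miR-203 and miR-708 inhibitors, against 0.350 FPKM in control cells.

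In the remaining lists 0 or 1 gene was called in each comparison. Among partners of ZBP1 in cell death 1 of 6 was called higher with the miR-182 inhibitor, Ripk3, at 9.19 FPKM with that inhibitor and 6.66 FPKM in control cells. Among endosomal Toll-like receptors and their partners 1 of 11 was called higher with the miR-182 inhibitor, the protease gene Ctsb, at 222 FPKM with that inhibitor and 165 FPKM in control cells. With 8.4% of all tested genes called higher there, 1 gene in a list of 6 or 11 says nothing about the list. By the authors' Cuffdiff q-values 0 of 14 nuclease and RNA editing genes were called in any comparison. At an unadjusted p under 0.05 from Cuffdiff, 3 were higher with the miR-182 inhibitor, 1 was lower with the miR-203 inhibitor and 1 was higher with the miR-708 inhibitor. That threshold was passed by 27.5%, 17.8% and 18.6% of all tested genes in these comparisons. Rnaseh2c, which encodes a subunit of RNase H2, had 68.3 FPKM with the miR-182 inhibitor, 57.7 with the miR-203 inhibitor and 70.9 with the miR-708 inhibitor, against 48.1 FPKM in control cells. Likewise 0 of 8 genes of the other eIF2α kinases and their partners were called, with 2 (both lower), 0 and 0 at an unadjusted p under 0.05 from Cuffdiff. Of 2 tested surface Toll-like receptors 0 were called, with 0 at that threshold. Tlr4, the receptor for lipopolysaccharide, had 3.60, 3.68 and 3.66 FPKM with the miR-182, miR-203 and miR-708 inhibitors, against 4.28 FPKM in control cells. Ppp1r15a, which encodes the phosphatase subunit that reverses PKR's effect on eIF2α, had 40.4 FPKM with the miR-182 inhibitor, 75.9 with the miR-203 inhibitor and 71.1 with the miR-708 inhibitor, against 116 FPKM in control cells, and was not called.

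The genes whose pattern came closest to that of the called sensors were sought among 11919 other genes with at least 1 FPKM in every group. The pattern was the median of the 6 called sensors' log2 ratios, 0.86 with the miR-182 inhibitor, 0.31 with the miR-203 inhibitor and 0.38 with the miR-708 inhibitor, and likeness was the Euclidean distance over these 3 values, all of which rest on the same control. The nearest were Pmepa1 at a distance of 0.0537, Nek2 at 0.0782, Cenph at 0.0822, Gm23158 at 0.0903, B3galt2 at 0.111 and Ngfr at 0.113. Pmepa1, Nek2, Cenph and B3galt2 were called higher with the miR-182 inhibitor alone. Ngfr was called higher with all 3 inhibitors, and Gm23158 was called with none of them. Pmepa1, an inhibitor of TGF-β signalling, had 14.2 FPKM with the miR-182 inhibitor, 9.05 with the miR-203 inhibitor and 9.79 with the miR-708 inhibitor, against 7.41 FPKM in control cells. Nek2, a mitotic kinase, had 3.21, 1.90 and 2.20 FPKM with the miR-182, miR-203 and miR-708 inhibitors, against 1.33 FPKM in control cells. With 3 values per gene, many genes lie near any one pattern.

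Markers of cell types moved with the inhibitors too. Of 8 listed markers of adipocyte precursors, 7 were tested and all 7 (Cd34, Pi16, Pdgfrb, Pdgfra, Thy1, Dlk1 and Ly6a) were called higher in each of the 3 comparisons. Over all tested genes 8.4%, 4.72% and 4.51% were called higher with the miR-182, miR-203 and miR-708 inhibitors. The remaining marker, Dpp4, was not tested and had 0.112, 0.264 and 0.0267 FPKM with these inhibitors, against 0.273 FPKM in control cells. All 8 markers together summed to 272 FPKM with the miR-182 inhibitor, 201 with the miR-203 inhibitor and 193 with the miR-708 inhibitor, against 115 FPKM in control cells. Among the 10 adipocyte markers, all tested, 2 were called lower in all 3 comparisons: Cidea and Ucp1, both of which mark brown fat cells. Over all tested genes 6.23%, 2.51% and 3.05% were called lower with the miR-182, miR-203 and miR-708 inhibitors. With the miR-182 inhibitor 2 of the 10, Adipoq and Cebpa, were called higher. Cidea had 56.2 FPKM with the miR-182 inhibitor, 157 with the miR-203 inhibitor and 146 with the miR-708 inhibitor, against 297 FPKM in control cells. The miR-182 group thus lay furthest from control for the summed precursor markers and for Cidea, and it also held the highest value of the 4 groups for 8 of the 10 sensors. The part of the precursor and adipocyte markers in the sensor results was not tested.

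Immune cells express most of these sensors strongly, so their markers were read beside them. Of 16 listed macrophage and dendritic marker symbols, among which Emr1 and Adgre1 name the same gene, 11 had a row. The summed level was 5.71 FPKM with the miR-182 inhibitor, 8.26 with the miR-203 inhibitor and 7.07 with the miR-708 inhibitor, against 10.7 FPKM in control cells. None of the 3 markers tested was called higher. Lyz2 was called lower with the miR-182 inhibitor and Fcer1g lower with the miR-203 inhibitor, each 1 of 3 tested. Of all tested genes 6.23% and 2.51% were called lower in those comparisons, and 1 of 3 is too small a count to set against them. The other markers with a row were not tested and were under 1 FPKM in every group. With the miR-182 inhibitor some of them, such as Csf1r and Cd14, stood above control and some, such as Emr1 and Laptm5, below it. The 3 lymphocyte markers with a row summed to 0.127, 0.190 and 0.291 FPKM with the miR-182, miR-203 and miR-708 inhibitors, against 0.141 FPKM in control cells. Endothelial markers summed to 31.9 FPKM with the miR-182 inhibitor, 23.4 with the miR-203 inhibitor and 26.4 with the miR-708 inhibitor, against 24.4 FPKM in control cells, most of it Egfl7. Of these, Cdh5 was called higher with the miR-182 inhibitor (1 of 5 tested) and Pecam1 with the miR-708 inhibitor (1 of 4 tested). With the miR-203 inhibitor 0 of 4 tested were called. Both Cdh5 and Pecam1 were under 1 FPKM in every group. Of all tested genes 8.4%, 4.72% and 4.51% were called higher with the miR-182, miR-203 and miR-708 inhibitors. A count of 1 in 5 or 4 is too small to set against those shares. The part of immune cells and of endothelial cells in the sensor results was not tested.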

How the data were processed

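Messenger RNA of 8 samples in 4 groups of 2 was sequenced from libraries made with a directional kit, per the labels' protocols. Per the submitters' processing notes, the tools were TopHat2 2.0.9 and Cuffdiff 2.1.1 with the mouse build mm10. Program options, gene models and strand handling were not given in the sources used here. Each of the 3 tables that the authors deposited holds pooled FPKM per group, a log2 fold change, a p-value and a q-value. Genes with p and q of exactly 1 were taken as not tested. Calls here are the authors' q-values under 0.05. Ratios were taken from the deposited FPKM, and log2 ratios with a pseudocount of 1. No fit of the data was made, since pooled FPKM hold no samples, and no interval could be had. Starts of the authors' loci, counted from 0, were raised by 1. Gene coordinates and 3′ UTRs came from GENCODE M21, and microRNA and promoter sequences from RefSeq (GRCm38.p6). The core motif was chosen after the promoters were seen. The members and lists were chosen with earlier results of these data known. All members are named, with at most 4 called genes per list, taken by the largest log2 ratio (a list with none called gives its member of highest control FPKM), and the 6 genes of nearest pattern. Genes outside that rule, named in short lists of calls or as untested list members, were chosen after their values were seen. Alternatives were the pseudocount, the q threshold, a Benjamini-Hochberg adjustment per table, a minimum FPKM, a minimum fold and rescaling to the median gene. Only the Benjamini-Hochberg adjustment and a search for nearest patterns, written in the same way, were tested on simulated data. Python 3.11.15, pandas 2.3.3, NumPy 2.4.6 and matplotlib 3.10.9 were used. One pathway list, of interferon receptor and signalling genes, is not reported here.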

Additional observations from a re-analysis of the deposited data

How the results depend on the processing

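No paired analysis was possible because the tables hold 1 pooled value per group, and for the same reason no replicate could be left out. With the miR-182 inhibitor the count of sensors called higher was 6, and it was 4 at q under 0.01, 7 with Benjamini-Hochberg adjustment within the table (Tlr3 was added), 5 among genes of at least 1 FPKM in either group and 6 with a minimum fold of 1.5. With the miR-203 inhibitor the count of 1 became 0 at q under 0.01 in the authors' deposited table, where Ddx58 has q = 0.0181 and 4 sensors have an unadjusted p under 0.05. The median log2 ratio depended on the pseudocount, because 5 of the sensors are under 1 FPKM in control cells. With a pseudocount of 0.1 it was 0.86 with the miR-182 inhibitor, 0.37 with the miR-203 inhibitor and 0.42 with the miR-708 inhibitor. With a minimum of 1 FPKM in either group it was 0.81 with the miR-182 inhibitor. Rescaling to the median gene gave medians of 0.49, 0.24 and 0.25 in the same order of comparisons. No sensor changed direction under the other pseudocount or the rescaling. Depth is unknown, so the precision of the sensors under 1 FPKM cannot be stated.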
